A study of Homo sapiens with 6 samples.

Results

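The expression of 10 genes of the transforming growth factor beta (TGF-beta) pathway was examined in murine BaF3-T315I cells exposed to I13. The genes were the ligand gene Tgfb1, the receptor genes Tgfbr1 and Tgfbr2, the SMAD genes Smad2, Smad3, Smad4, Smad6 and Smad7, and the corepressor genes Ski and Skil. The members were chosen by gene symbol, all 10 were listed among the 22413 genes of the deposited table, and the 3 I13 samples were set against the 3 control samples. The choice was made with results of this comparison known, and Tgfbr1 is among the genes that the study lists for the chronic myeloid leukemia pathway. The study took that list from genes that it called as differentially expressed. The changes of the 10 genes are therefore given as a description and not as a test.

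Parental BaF3 is an interleukin-3-dependent murine pro-B cell line. BaF3-T315I cells carry, by stable transfection, the T315I-mutated form of the BCR-ABL kinase, which resists imatinib. All 6 samples carried it. The medium that the paper gives for these cells names no interleukin-3. I13 is a histone deacetylase inhibitor, and the treated cells received 1.1 µM of it. Exposure lasted 48 h, while the time and vehicle of the control are not given in the labels. mRNA was sequenced, and the expression of each gene was deposited as FPKM, a fragment number that takes account of how long the gene is and how deeply the library was sequenced. The samples were labelled as replicates 1, 2 and 3 of each group, and sets of 3 values below follow that order. The labels do not say that these were separate cultures. The paper's statistics section gives 3 independent experiments for its results in general, without naming the sequencing, so the spread between the samples may be technical.

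TGF-beta is secreted in a latent form. Once released it binds the type II receptor TGFBR2, which phosphorylates the type I receptor TGFBR1. TGFBR1 then phosphorylates SMAD2 and SMAD3, which bind the shared partner SMAD4 and enter the nucleus. SMAD6 and SMAD7 restrain the receptors, whereas SKI and SKIL (also called SnoN) bind SMADs and recruit histone deacetylase corepressor complexes to their target genes. In blood cells the pathway is known for slowing growth.

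The library totals, recovered from the FPKM values, ran from 16762119 to 17722950 fragments, so depth differed little between samples. Between 112 and 12111 fragments lay behind each FPKM value of the 9 members that passed the filter on low values, an average of 0.5 FPKM or more across samples. Smad6 did not pass it. The cells were bulk samples, in which fewer cells of a type and less RNA per cell cannot be told apart. Of 10 haematopoietic and pro-B marker genes, Ptprc, Csf2rb, Csf2rb2, Il3ra, Cd79a and Cd79b were expressed, while the B lineage genes Ebf1, Pax5, Vpreb1 and Igll1 had between 1 and 5 fragments over all samples. Some of these markers were higher with I13. Csf2rb and Csf2rb2, the receptor subunits for interleukin-3 and related cytokines, had log2 fold changes of 0.83 and 1.02 and were called with the replicate block described below (adjusted p = 0.0313 and 0.0312). Ptprc had 0.44, with groups that did not overlap, as in 9.82% of all genes tested in this direction. It was not called with the block (adjusted p = 0.0578). Il3ra and Cd79a had 0.33 and 0.27, with groups that overlapped, and neither was called. The B lineage gene Cd79b went the other way, at -0.15. The summed level of the 10 markers, mostly Csf2rb and Csf2rb2, ran from 472 to 929 FPKM in the controls and from 951 to 1699 FPKM with I13, and its part in the differences of the 10 pathway genes was not tested. The fibroblast marker Col1a1 had 46 fragments over all samples.

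Among the 9 genes that passed the filter, the largest differences were those of Tgfbr1 and Skil, the type I receptor and an antagonist of the SMADs. Their mean FPKM after I13 was 1.49 and 1.38 times that of the control. For Tgfb1 and Tgfbr2 it was 1.21 and 1.14 times that of the control, with groups that overlapped. The means of Smad2, Smad3, Smad4, Smad7 and Ski after I13 lay between 0.968 and 1.02 times those of the control. No ratio is given for Smad6, which had at most 2 fragments in a library. In the fit across all genes (limma on log2(FPKM + 0.1)), calls needed 0.58 or more in absolute log2 fold change together with an adjusted p under 0.05. The study gives the same cut-offs without naming its test. It called Tgfbr1 among many more genes than were called here, and the reason for this difference was not tested. None of the 9 members tested was called, beside 0.0411% of all 12163 genes tested. Tgfbr1 and Skil, 2 of the 9, reached an unadjusted p under 0.05, beside 18.6% of all genes. With voom on the recovered fragments the count of members called was also 0, beside 0.0493% of all genes tested. The median log2 fold change of the 9 was 0.05, and that of all genes tested was -0.0053.

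**Figure D1:**
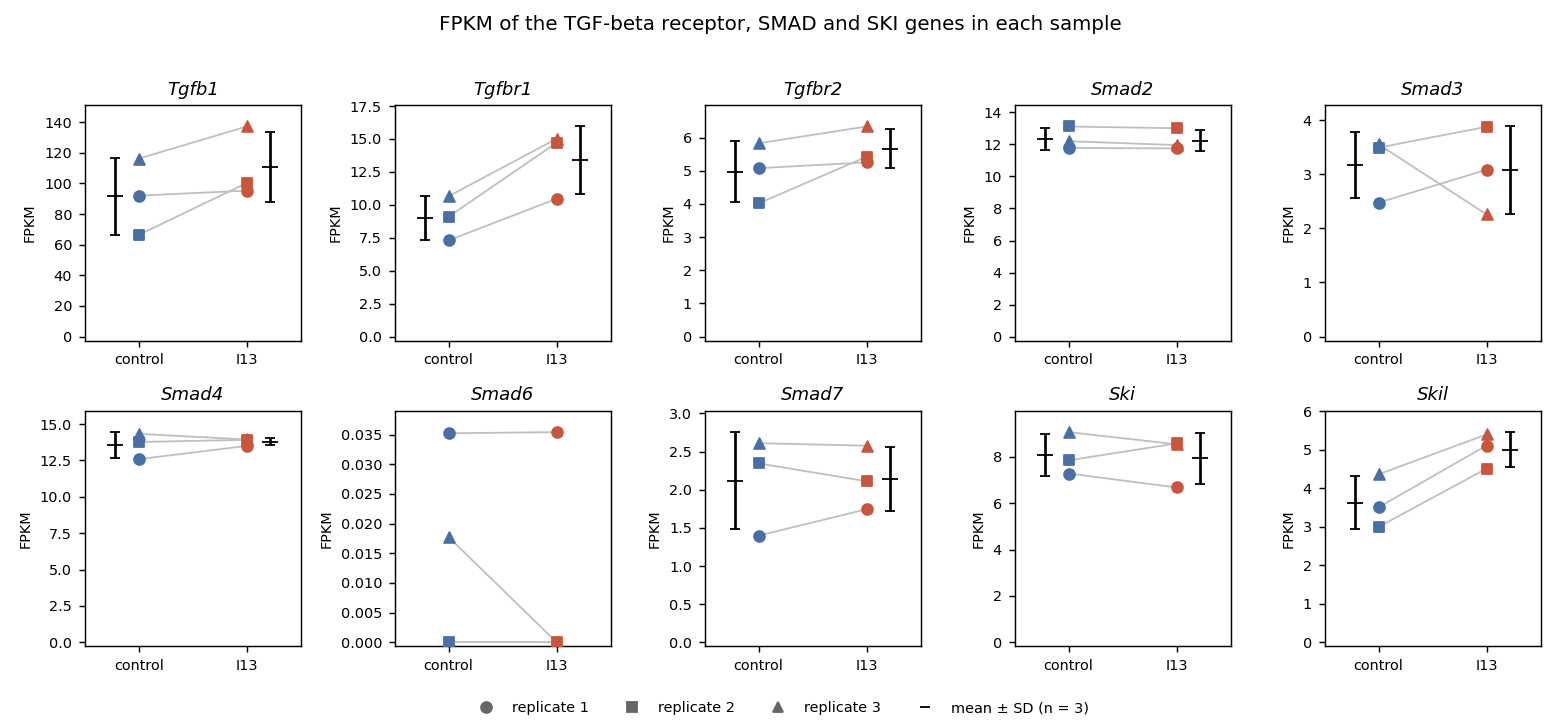
FPKM (vertical axes, each including 0) of the 10 genes in control and I13 samples, with marker shapes for replicates 1, 2 and 3, grey lines joining samples of the same number and black bars for the mean ± SD (n = 3), left out for Smad6, whose I13 replicates 2 and 3 coincide at 0. Every line of Tgfbr1, Skil, Tgfb1 and Tgfbr2 climbs from control to I13, those of Smad2 lie nearly flat, and only in Skil do all I13 values lie above all control values.

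Tgfb1, which encodes the ligand TGF-beta 1, had by far the highest FPKM of the 10 genes. It was expressed at 92.1, 66.4 and 116 FPKM in the controls and at 95.3, 100.3 and 137 FPKM with I13. The groups overlapped, since control replicate 3 lay above I13 replicates 1 and 2. Its mean level over the 6 samples, 101 FPKM, was at or above that of 96.0% of the genes tested. The mean was 91.6 ± 24.9 FPKM in the control and 111 ± 22.9 FPKM after I13 (SD, n = 3 each), or a log2 difference of 0.29 (standard error 0.22). I13 replicate 2 stood at 1.51 times its same-numbered control, whereas the ratio was 1.04 for replicate 1 and 1.18 for replicate 3. Without control replicate 2, the lowest sample, the log2 fold change was 0.08.

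Tgfbr1, the kinase that phosphorylates SMAD2 and SMAD3, stood at 7.31, 9.11 and 10.7 FPKM in the controls. In the I13 samples it stood at 10.5, 14.7 and 15.0 FPKM. The groups overlapped only because I13 replicate 1 lay just below control replicate 3. Within each pair of same-numbered samples the I13 value was higher, at 1.43, 1.62 and 1.41 times the control. The mean went from 9.02 ± 1.68 to 13.4 ± 2.55 FPKM (SD, n = 3 each), or a log2 difference of 0.56 (standard error 0.19), just under the threshold of 0.58. When the replicate number entered the fit as a block, so that samples of the same number were compared, the fit gave the same log2 fold change with a standard error of 0.09. The adjusted p was 0.191 without the block and 0.0447 with it, and neither is independent evidence because the gene was chosen from this comparison. With the block no member was called either, beside 1.89% of all genes tested. Tgfbr1 was then the only member of the 9 with an adjusted p below 0.05, a share of genes that was 2.99% over all genes tested. With both the block and voom the adjusted p of Tgfbr1 was 0.00615, at a log2 fold change of 0.57, again under the threshold. In that fit 12.4% of all genes tested had an adjusted p below 0.05. When both samples of any replicate number were left out of the blocked fit, the adjusted p lay between 0.0782 and 0.311.

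Tgfbr2, the receptor that binds the ligand and activates TGFBR1, had 5.08, 4.02 and 5.83 FPKM in the controls. After I13 the values were 5.25, 5.42 and 6.34 FPKM. They overlapped the controls, and the log2 fold change was 0.20 (standard error 0.16). Tgfbr2 and Tgfb1 placed the 6 samples in the same order, with control replicate 2 lowest, control replicate 3 above I13 replicates 1 and 2, and I13 replicate 3 highest. Without control replicate 2 the log2 fold change of Tgfbr2 was 0.05. In all 6 samples the level of Tgfbr1 per length exceeded that of Tgfbr2.

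Smad2 and Smad3 encode the SMADs that the activated receptor phosphorylates. Smad2 was expressed at 11.8, 13.1 and 12.2 FPKM in the controls and at 11.8, 13.01 and 11.96 FPKM with I13. Each I13 value of Smad2 was within 2% of its same-numbered control. The 95% interval of its log2 fold change in the fit ran from -0.24 to 0.21. Smad3 had a lower level, with 2.47, 3.49 and 3.55 FPKM in the controls and 3.08, 3.88 and 2.26 FPKM after I13. It was higher after I13 in replicates 1 and 2 and lower in replicate 3, where the I13 value was 0.635 times that of the control. The log2 fold change of Smad3 was -0.06 (standard error 0.23), and it ran from -0.24 in the blocked fit without replicate 1 to 0.23 in that without replicate 3. Its 95% interval, from -0.60 to 0.48, was wider than that of Smad2.

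Smad4, the common partner, varied little between samples. It was found at 12.6, 13.8 and 14.3 FPKM in the controls and at 13.5, 13.9 and 13.9 FPKM with I13. The I13 samples lay inside the range of the controls, and the log2 fold change was 0.03 (95% interval -0.19 to 0.24). Together with Smad2 it had the highest level per length of the SMAD genes. The means of Smad4 and Smad2 over all samples, 13.7 and 12.3 FPKM, lay at the 67.0 and 64.0 percentiles of the genes tested.

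Of the inhibitory SMADs, Smad7 was expressed at a low level and Smad6 was barely detected. Smad7, which is known to block TGFBR1 and to be induced by TGF-beta itself, had 1.40, 2.35 and 2.61 FPKM in the controls. After I13 its values were 1.74, 2.11 and 2.58 FPKM, in the same order of replicate numbers as the controls. The log2 fold change was 0.05 with a standard error of 0.26, so a change of moderate size in either direction could not be told from the spread. Without control replicate 1, the lowest sample, it was -0.21. Smad6, better known as an inhibitor of the bone morphogenetic protein (BMP) branch, had 2, 0 and 1 fragments in the controls. It had 2, 0 and 0 fragments with I13. A library with no fragment still allows up to 3, which for Smad6 is between 0.0529 and 0.0559 FPKM over the 6 samples, and this limit covers counting error only. No difference in Smad6 was detectable at this depth.

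The related corepressor genes Ski and Skil differed in their values. Skil was expressed at 3.50, 3.00 and 4.36 FPKM in the controls and at 5.11, 4.51 and 5.40 FPKM with I13. Every I13 sample lay above every control, and each was 1.46, 1.51 and 1.24 times its same-numbered control. Skil was the only 1 of the 9 members tested whose groups did not overlap, which 9.82% of all genes tested also showed in this direction. Its mean was 3.62 ± 0.690 FPKM in the control and 5.01 ± 0.452 FPKM after I13 (SD, n = 3 each), or a log2 difference of 0.47 (standard error 0.16). The adjusted p of Skil was 0.196, or 0.0759 with the block, and with both the block and voom it was 0.0176, where 12.4% of all genes tested had an adjusted p under 0.05. Tgfbr1 and Skil were the 2 members of the 9 under 0.05 in that fit. It called no member, beside 4.14% of all genes tested. Ski had 7.28, 7.85 and 9.07 FPKM in the controls and 6.68, 8.58 and 8.54 FPKM after I13. These groups overlapped, and the log2 fold change of Ski was -0.03 (standard error 0.14).

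**Figure D2:**
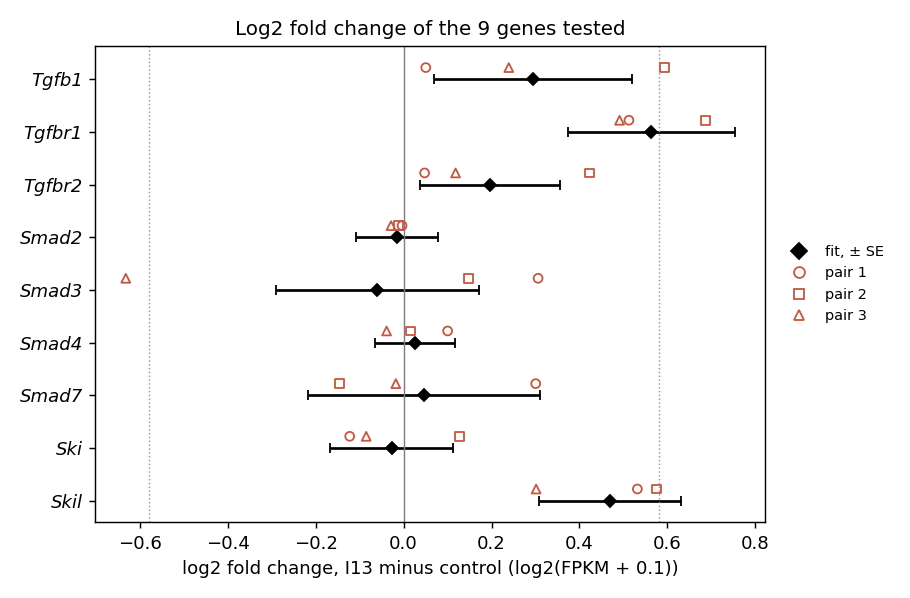
Log2 fold change of I13 minus control on the log2(FPKM + 0.1) scale (horizontal axis) for the 9 genes tested, with black diamonds and bars for the fit ± standard error, open symbols for the differences within same-numbered pairs and dotted lines at the fold change threshold of 0.58. Tgfbr1 at 0.56 and Skil at 0.47 lie farthest from 0, and the pair 3 value of Smad3, at -0.63, stands apart from its other pairs.

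Levels per length can be set against each other within a sample, which leaves out whatever a library shares across its genes. The Tgfbr1 level was 1.44, 2.27 and 1.83 times that of Tgfbr2 in the controls. After I13 it was 1.99, 2.71 and 2.37 times that of Tgfbr2. This ratio was higher in the I13 sample of each pair, although the groups overlapped. The Ski level was 2.08, 2.62 and 2.08 times that of Skil in the controls and 1.31, 1.90 and 1.58 times after I13. These groups did not overlap, and Ski stayed the more abundant of both. Skil alone already had groups that did not overlap, as had 9.82% of all genes tested in its direction. No such share was computed for ratios. The Smad2 level was 4.76, 3.76 and 3.43 times that of Smad3 in the controls and 3.81, 3.36 and 5.30 times after I13, with no common direction among the pairs. No test was made on these ratios, which use the same values as the choice of the genes.

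**Figure D3:**
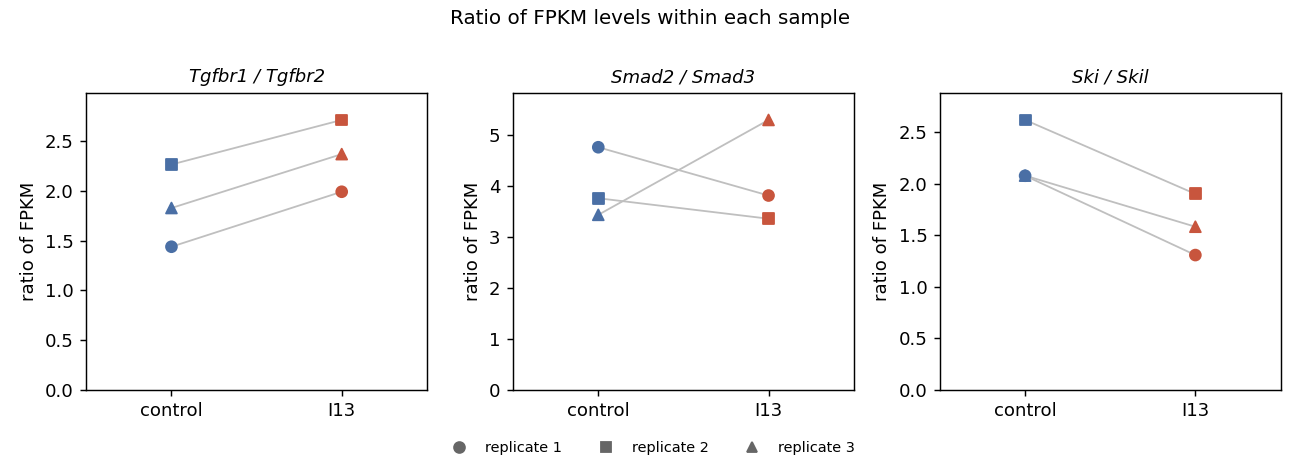
Ratio of FPKM levels within each sample (vertical axes, starting at 0) for Tgfbr1 over Tgfbr2, Smad2 over Smad3 and Ski over Skil, with marker shapes for the replicate numbers and grey lines joining samples of the same number. The receptor ratio is higher and the Ski to Skil ratio lower in the I13 sample of every pair, while the Smad2 to Smad3 ratio goes up in replicate 3 and down in the other pairs.

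Across same-numbered pairs, 4 of the 9 members tested, Tgfb1, Tgfbr1, Tgfbr2 and Skil, were higher after I13 in all 3, beside 24.1% of all genes tested. Smad2 was lower in all 3, as were 27.3% of all genes tested. By the mean over the 6 samples, the order of the levels was Tgfb1, Smad4, Smad2, Tgfbr1, Ski, Tgfbr2, Skil, Smad3, Smad7 and Smad6. Smad4 and Smad2 had ranges over the samples that overlapped, as had Smad2 and Tgfbr1, Tgfbr1 and Ski, Tgfbr2 and Skil, Skil and Smad3, and Smad3 and Smad7. The ranges of Tgfb1 and Smad4 did not overlap, nor did those of Ski and Tgfbr2, nor those of Smad7 and Smad6.

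The genes whose values followed Tgfbr1 most closely over the 6 samples were taken as the 5 tested genes outside the list with the highest Pearson r on log2(FPKM + 0.1). They were Slc24a3, a cation exchanger, Colgalt1, a collagen galactosyltransferase, Creg1, a lysosomal glycoprotein, Nepro, a nucleolar protein, and the alpha-tubulin gene Tuba4a, with r between 0.988 and 0.994. Of all tested genes outside the list, 53 (0.436%) had an r of at least 0.95. The points share their libraries, and with 6 of them such values describe the samples only.

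The other genes of the pathway were summarised with 6 lists by role, which hold no member. Like the members, the lists were chosen with earlier results of these data known, so their counts and shares are a description only. Of their 104 genes, 84 were listed, 61 were tested and the 20 that were not listed are not analysed here. None of the 61 was called without the block, beside 0.0411% of all genes tested, and 16 had an unadjusted p below 0.05, or 26.2% beside 18.6% of all genes. With voom in place of log2 FPKM the count called was also 0. With the replicate block 3 were called, Id2 and Bhlhe40 higher and Usp11 lower, beside 1.36% of all genes tested called higher and 0.526% called lower. The median log2 fold change of the 61 genes was 0.04.

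Genes that TGF-beta and SMADs are known to regulate had the highest median of the 6 lists, 0.41 over the 15 genes tested of 24. Bhlhe40, a transcriptional repressor, had 32.0, 15.3 and 25.9 FPKM in the controls and 46.6, 36.6 and 47.5 FPKM with I13. All I13 values of Bhlhe40 were above all controls, which 9.82% of all genes tested also showed in this direction. The log2 difference of Bhlhe40 was 0.89 (standard error 0.26, adjusted p = 0.158, and 0.0451 with the block), and it was 0.59 without control replicate 2. Id2, an inhibitor of helix-loop-helix factors, differed strongly between replicate numbers, with 22.6, 5.70 and 23.3 FPKM in the controls and 51.5, 14.0 and 36.3 FPKM after I13. The groups of Id2 overlapped, but each I13 value was higher than its same-numbered control, with a log2 difference of 1.03 (standard error 0.65, adjusted p = 0.427, and 0.0384 with the block). Without control replicate 2 it was 0.37, and in the blocked fit without replicate 1 Id2 was no longer called (adjusted p = 0.0792). Myc, a growth-promoting factor that TGF-beta is known to repress, had the highest level of the list. Its mean was 148 ± 19.4 FPKM in the control and 192 ± 31.8 FPKM after I13 (SD, n = 3 each), or 0.37 as log2 fold change (adjusted p = 0.252, and 0.052 with the block). The list mixes genes that TGF-beta raises with genes that it lowers, so its median has no single reading.

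**Figure D4:**
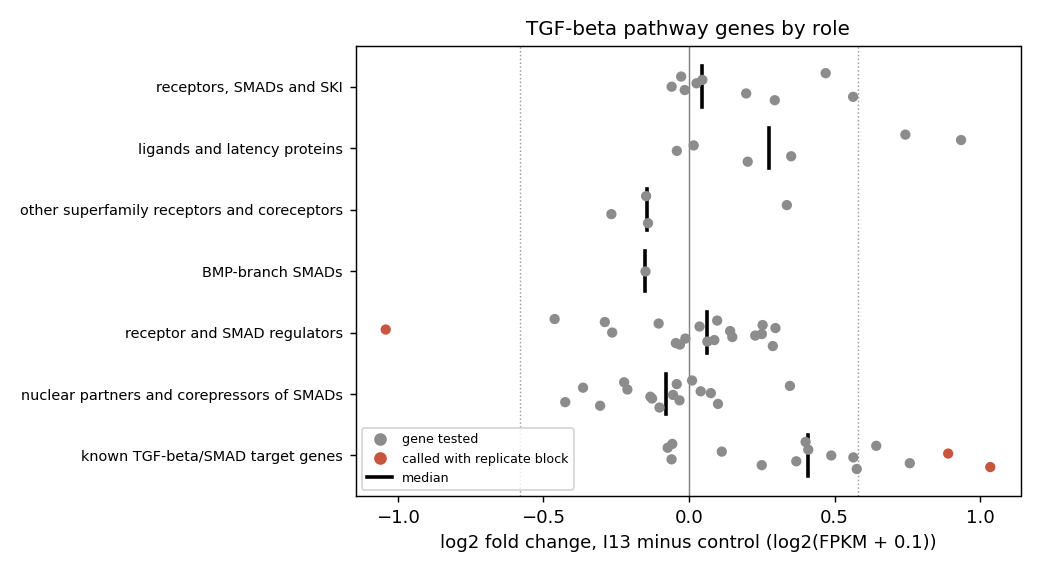
Log2 fold change of I13 minus control on the log2(FPKM + 0.1) scale (horizontal axis) for the genes tested in each role, with a point for each gene, red for genes called with the replicate block, a black bar for the median and dotted lines at 0.58 in either direction. The known target genes have a median of 0.41 and hold Id2 and Bhlhe40 at the right, and Usp11 stands alone at the left at -1.04.

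Among the ligands and latency proteins, 6 of 24 genes were tested and none was called with or without the block. Their median log2 fold change was 0.28. Furin, the protease that cuts the TGF-beta 1 precursor, had the highest level and the largest change of these genes. It stood at 129, 44.4 and 154 FPKM in the controls and at 169, 116 and 315.3 FPKM with I13. Like Tgfb1 it was lowest in control replicate 2 and highest in I13 replicate 3. The log2 fold change of Furin was 0.93 (standard error 0.53, adjusted p = 0.38, and 0.0591 with the block), and it was 0.38 without control replicate 2. Tgfb2 and Tgfb3, the genes of the other TGF-beta ligands, were named after their values were seen. They had 38 and 77 fragments over all samples and were not tested.

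Of the other superfamily receptors 4 of 12 genes were tested, with a median of -0.14 and none called with or without the block. Acvr1b, an activin receptor that also phosphorylates SMAD2 and SMAD3, had the highest level, with 9.51 ± 0.891 FPKM in the control and 8.60 ± 0.478 FPKM after I13 (SD, n = 3 each). Bmpr2, the type II receptor of BMPs, had the largest absolute change, a log2 difference of 0.34 (standard error 0.11, adjusted p = 0.193). Of the BMP-branch SMADs only Smad5 was expressed above the filter, with a log2 difference of -0.15 (standard error 0.15, adjusted p = 0.628). The value of Smad5 was -0.016 without control replicate 2 and -0.25 without control replicate 1. Smad1 and Smad9, named after their values were seen, had 2 fragments each over all samples.

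Of the genes that regulate the receptors and SMADs, 19 of 22 were tested, with a median of 0.06. Usp11, a deubiquitinase reported to act on TGFBR1, had the largest absolute change. It stood at 12.4, 8.81 and 9.62 FPKM in the controls and at 5.47, 4.31 and 4.94 FPKM with I13. Every I13 sample lay below every control, which 15.4% of all genes tested also showed. The log2 difference of Usp11 was -1.04 (standard error 0.16, adjusted p = 0.086, and 0.0308 with the block). Tab1, a partner of the kinase encoded by Map3k7, had an adjusted p below 0.05 with the block at a log2 fold change of -0.46, and was named after its value was seen. Fkbp1a, which binds the type I receptor, had the highest level of this list and a log2 difference of 0.09 (standard error 0.30, adjusted p = 0.90), which was -0.19 without I13 replicate 1.

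Of the nuclear partners and corepressors of SMADs, 16 of 19 were tested, with a median of -0.08 and none called with or without the block. Ctbp1, a corepressor that the study also lists for the chronic myeloid leukemia pathway, had the largest absolute change of this list. It was listed at 52.9, 52.8 and 53.3 FPKM in the controls and at 38.3, 39.1 and 41.02 FPKM with I13. The groups of Ctbp1 did not overlap, with I13 lower, which 15.4% of all genes tested also showed. Its log2 fold change of -0.43 (adjusted p = 0.0989, and 0.0447 with the block) lay under the fold change threshold. Ctbp1 was thus not called here, whereas the study took its list from genes that passed the same cut-offs. E2f4, a partner of SMAD3 in repression, was likewise lower, with a log2 fold change of -0.36 and an adjusted p of 0.0478 with the block, and was named after its value was seen. Tfdp1 was the most abundant of the list, with a log2 difference of 0.01 (standard error 0.15, adjusted p = 0.978).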

How the data were processed

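The authors deposited FPKM values of mouse genes for 3 control and 3 I13 samples of BaF3-T315I cells, with replicates kept apart. The processing notes of the submitters name Trimmomatic, HISAT2, Cufflinks and HTSeq without versions and the human build hg38, whereas the gene identifiers are murine, and the build used is not given in the sources used here. No mouse sequence or coordinate was used. Columns of per-sample values without a sample numbered 0.

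Library totals were recovered as the largest whole numbers that gave whole lengths for genes found in a single sample, and were then refined. Gene lengths were the smallest whole numbers that gave whole fragments in all samples within 0.002 fragments, which held for 22412 of 22413 genes. The fragment numbers are therefore the lowest that fit, which matters most for genes with few fragments. Differences were fitted with limma 3.58.1 (R 4.3.3) on log2(FPKM + 0.1), eBayes with a trend, for 12163 genes averaging 0.5 FPKM or more, with Benjamini-Hochberg adjustment. The pseudocount makes fold changes of low genes too small.

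Replicate numbers were taken to pair the samples. Deviations from the group means of same-numbered samples correlated across genes at 0.15, 0.30 and 0.22 for replicates 1, 2 and 3, and those of other pairs lay between -0.26 and 0.05. Deviations within a group cancel out for each gene, so positive values in same-numbered pairs force lower ones elsewhere. The check is therefore weak, and the pairing rests mainly on the numbers in the labels.

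The members and lists were chosen with earlier results of these data known. Named are the 10 members and, from each of 6 lists, genes called with or without the block, the gene of highest mean FPKM and that of largest absolute change, and the 5 genes most like Tgfbr1. Genes named outside this rule are marked in the text as named after their values were seen, apart from the cell type markers. Alternatives were other pseudocounts, filters, scalings, eBayes without a trend, the replicate block, voom, and leaving out samples or pairs. A correction for gene length by loess (span 0.5) was added after seeing the data. Plots came from matplotlib 3.10.9 (Python 3.11.15).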

Additional observations from a re-analysis of the deposited data

How the results depend on the processing

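The count of members called was 0 under all 21 alternatives. Over all genes tested, 5 genes were called, and 230 with the replicate block, 503 with the block and voom, and 231 with the block and the length correction, which was chosen after seeing the data. The count was 2 with a pseudocount of 0.01 or median-ratio scaling and 8 without a filter or without a trend. It ran from 0 to 0 when 1 sample was left out, where 1478 to 2482 genes had unadjusted p-values under 0.05, and from 0 to 83 in blocked fits that lacked 1 pair. Of the other pathway genes 3 were called with the block, with the block and the length correction, and with the block without replicate 1, and 6 with the block and voom (Id2, Bhlhe40, Furin, Itgav and Gadd45b higher, Usp11 lower). The last list was named after its values were seen. Leaving out pairs in the blocked fit gave 0 to 3. Without replicate 1 the called genes were Bhlhe40, Usp11 and Furin, and Id2 was lost (adjusted p = 0.0792), while without replicate 2 or 3 none of them was called. The cause of these differences was not tested. In the fits that left samples out, having fewer samples cannot be told apart from which samples were left out.

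The log2 fold changes of Tgfbr1, Skil, Tgfb1 and Tgfbr2 kept their sign in all 21 alternatives, with ranges of 0.42 to 0.73, 0.34 to 0.61, 0.08 to 0.48 and 0.05 to 0.32. Tgfbr1 passed 0.58 in 5 of them, among them TPM (0.596). Those of Ski, Smad2, Smad3, Smad7 and Smad4 changed sign in 5, 4, 4, 3 and 2 alternatives. Tfdp1 ran from -0.13 to 0.13 and was below 0 without control replicate 1 (-0.079) or 3 (-0.017), without I13 replicate 1 (-0.044) or 2 (-0.056), and in the blocked fit without replicate 1 (-0.134). Fkbp1a ran from -0.19 to 0.352 and was below 0 without control replicate 2 (-0.082) or 3 (-0.010) or I13 replicate 1 (-0.185). Of the members, Smad6 could not be compared at this depth, with 5 fragments in all.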
